A study of Sus scrofa with 10 samples.

Results

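The genes described here drive cells from G2 through mitosis, and their RNA was measured in pig morulae after knockdown of DDB1, which links target proteins to CUL4 ubiquitin ligases. A list of 32 names was used, covering cyclins, mitotic kinases and phosphatases, checkpoint, kinetochore, spindle and cytokinesis genes, and of duplicate names the row with most counts was to be taken. Of these, 30 were matched among the 24358 genes listed, 26 by the table's own name, 3 (CDK1, KIF23 and PRC1) through Ensembl gene names and 1 (AURKA) through its NCBI gene number. CCNA2 and CDC25A were not analysed here. All 30 matched genes had a mean of at least 1 FPKM (the deposited expression level, scaled to transcript length and library depth) and so entered the test of 8476 genes.

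Matured pig oocytes had received a small interfering RNA (siRNA) by injection, were activated parthenogenetically, that is without sperm, and grew to morulae in culture. The siRNA targeted DDB1 in 5 libraries (DDB1_KD, the knockdown) and was non-specific in the other 5 (NC, the control). Every embryo in both groups was thus injected and uniparental, and the sources used here do not state the breed of pig or how many embryos made a library. The labels do not say that libraries within a group are separate cultures, so p-values measure the spread between these libraries, which may be technical.

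Entry into mitosis is driven by CDK1 bound to cyclin B. WEE1-type kinases hold this complex inactive, and CDC25 phosphatases release it, helped by PLK1 and the Aurora kinases. The spindle checkpoint then keeps CDC20 from activating the anaphase-promoting complex until every kinetochore is attached, after which cyclin B is destroyed and cytokinesis follows. In early embryos much of this machinery is first supplied by the oocyte as stored RNA and protein, which is later cleared and replaced from the embryo's own genome.

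Libraries held 32466912 to 50911295 estimated counts, with 13522 to 14755 genes above 0. DDB1 stood at 0.920, 1.30, 1.28, 1.30 and 1.55 FPKM in DDB1_KD replicates 1 to 5 and at 3.59, 3.12, 2.53, 3.15 and 4.44 FPKM in NC replicates 1 to 5, without overlap. The DDB1 level as a mean of log2(FPKM + 1) differed by -0.93, knockdown minus control (exact permutation over 252 assignments, two-sided, p = 0.00794, the smallest possible). Across all genes edgeR gave DDB1 an adjusted p of 0.977, and DESeq2 one of 0.0069. POU5F1, a pluripotency gene of the early embryo, was present at 27.8 to 123 FPKM in the 10 libraries. Of 15 cumulus and granulosa cell markers 14 were listed, with a summed level of 1.62 to 20.8 FPKM in DDB1_KD and 4.43 to 44.0 FPKM in NC. FSHR, AMH, INHA and CYP11A1 were at 0 throughout, where a count of 0 still allows 3 counts for a library. FST, which encodes follistatin, stood at 1.04 to 19.9 FPKM in DDB1_KD and 4.21 to 43.3 FPKM in NC. The summed level thus mostly followed FST, the 1 marker on that list that entered the test. No other marker of the 14 exceeded 1.14 FPKM in any library.

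With edgeR's quasi-likelihood test and an adjusted p of 0.05 as threshold, 0 of the 30 G2 and mitosis genes passed, as did 0% of all 8476 genes tested. The smallest adjusted p among the 30 was 0.977. At an unadjusted p under 0.05 there were 2 of the 30 genes, NEK2 and MAD2L1, both higher in DDB1_KD, where 2.89% of all genes tested reached that level in either direction and 1.76% with a higher value in DDB1_KD. DESeq2 also passed 0 of the 30 (0.0236% of all genes). At an unadjusted p under 0.05 it had 5, namely NEK2, MAD2L1, CDK1, BUB1B and CCNB1, all higher, against 4.16% of all genes. With limma 0 of the 30 passed (0% of all genes) and 2 had an unadjusted p under 0.05, NEK2, higher, and CDC25B, lower, against 3.22% of all genes. The fitted value was higher in DDB1_KD for 23 of the 30 genes and lower for 7, where 50% of all genes tested were higher. Their median log2 fold change was 0.17, against 0.00 for all genes tested. For 1 of the 30 genes, NEK2, all DDB1_KD values lay apart from all NC values, against 0.413% of all genes tested, or 0.189% with the knockdown higher. The list was chosen with earlier results of these data known, so these counts are a description and no test of the list was made.

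**Figure D1:**
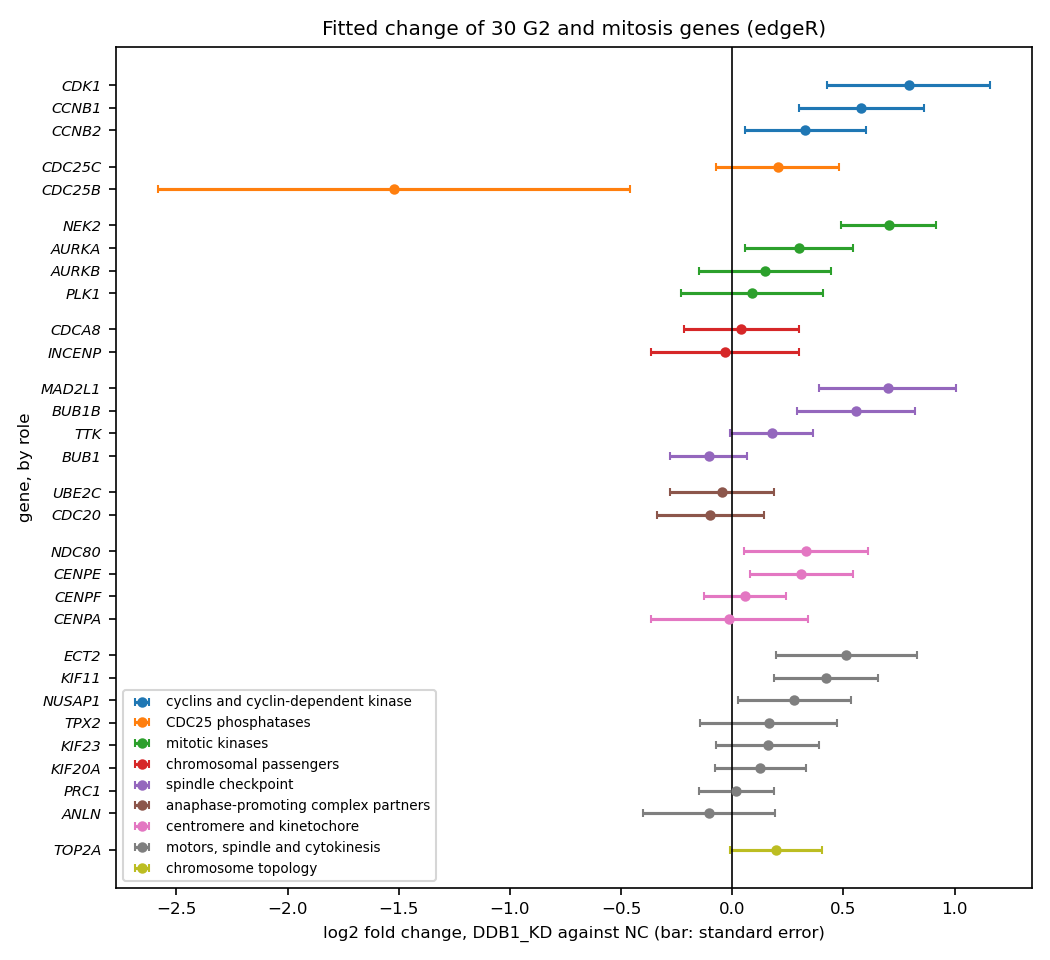
Fitted log2 fold change of DDB1_KD against NC (horizontal axis) for the 30 genes, grouped and coloured by role, with the standard error as a bar. Of the 30 points 23 lie to the right of 0, and CDC25B, at -1.52, has the widest bar.

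The genes differed widely in level. In NC morulae UBE2C, the ubiquitin-conjugating enzyme that works with the anaphase-promoting complex, had the highest mean at 601 FPKM, and INCENP, the scaffold of the chromosomal passenger complex, had the lowest at 2.996 FPKM. The median of the 30 NC means was 15.5 FPKM, with 12 genes at 20 FPKM or more and 8 under 10 FPKM. These levels are scaled to transcript length, but gene FPKM is not always the sum of isoform FPKM. AURKA, for example, had an NC mean of 45.1 FPKM, while 1 of its isoforms alone had 77.4 FPKM. The order of genes with several isoforms is thus approximate.

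CDK1 and its B-type cyclins, CCNB1 and CCNB2, had higher fitted values in DDB1_KD. CDK1 (ENSSSCG00000010214, chromosome 14, 64233816 to 64252739, plus strand, susScr11 build) stood at 45.3, 103, 91.1, 32.02 and 116 FPKM in DDB1_KD replicates 1 to 5. In NC replicates 1 to 5 it stood at 27.3, 52.8, 50.8, 58.5 and 37.8 FPKM. DDB1_KD replicates 2, 3 and 5 thus lay above every NC library, whereas replicates 1 and 4 lay within the NC range. The means were 77.6 ± 36.9 and 45.5 ± 12.6 FPKM (SD, n = 5 each), a log2 fold change of 0.79 (SE 0.37), which ranked CDK1 number 252 of the 8476 genes by p.

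CCNB1, cyclin B1, which activates CDK1 at mitotic entry, was likewise highest in DDB1_KD replicate 5 and lowest in NC replicate 1. Its level (ENSSSCG00000029326, chromosome 16, 47338072 to 47349846, plus strand) was 203, 324, 248, 143 and 345 FPKM in DDB1_KD replicates 1 to 5 and 112, 148, 177, 233 and 188 FPKM in NC replicates 1 to 5. DDB1_KD replicates 2, 3 and 5 again exceeded every NC library, and replicate 4 lay near the low end of NC. The log2 fold change was 0.58 (SE 0.28), number 323 by p. CCNB2, the second B-type cyclin, was less abundant, at 18.5, 38.1, 29.2, 19.998 and 28.7 FPKM in DDB1_KD and 13.8, 17.4, 31.7, 23.2 and 22.2 FPKM in NC. Its groups overlapped, and by FPKM only DDB1_KD replicate 2 lay above the NC range. Log2 CPM, counts on a log scale relative to library depth, carries the scaling of the fit. By log2 CPM DDB1_KD replicates 3 (6.066) and 5 (6.061) also lay just above the highest NC library, replicate 3 (6.052). The log2 fold change of CCNB2 was 0.33 (SE 0.27), or 0.20 without DDB1_KD replicate 2.

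The CDC25 phosphatases, which remove the inhibitory phosphates from CDK1, differed from each other. CDC25B (ENSSSCG00000007151, chromosome 17, 31910825 to 31921588, minus strand) stood at 14.2, 0.0949, 0.462, 14.5 and 0.291 FPKM in DDB1_KD replicates 1 to 5. In NC replicates 1 to 5 it stood at 12.4, 17.6, 30.6, 11.01 and 10.9 FPKM. DDB1_KD replicates 1 and 4 lay within the NC range and replicates 2, 3 and 5 far below it. In counts, the 3 low libraries held 14, 67 and 48, whereas the other DDB1_KD libraries held 2101 and 1621 and the NC libraries 1482 to 3537. The fitted log2 fold change was -1.52 (SE 1.06), and edgeR's adjusted p was 0.977. Without DDB1_KD replicate 1 it was -2.23, and CDC25B did not pass in any alternative run. CDC25C, by contrast, stood at 16.8 to 42.7 FPKM in DDB1_KD and 19.0 to 30.8 FPKM in NC, and its log2 fold change was 0.21 (SE 0.28), or 0.028 without DDB1_KD replicate 2.

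Of the mitotic kinases NEK2, which acts in centrosome separation, was the one gene of the 30 whose groups did not overlap. Its level (ENSSSCG00000015604, chromosome 9, 131547036 to 131561461, plus strand) was 11.5, 19.7, 12.5, 11.1 and 12.2 FPKM in DDB1_KD replicates 1 to 5 and 8.81, 6.75, 9.71, 7.86 and 8.22 FPKM in NC replicates 1 to 5. Every DDB1_KD library lay above every NC library, by the least between DDB1_KD replicate 4 and NC replicate 3. The means were 13.4 ± 3.56 and 8.27 ± 1.10 FPKM (SD, n = 5 each), a 1.63-fold difference in the fit (log2 fold change 0.70, SE 0.21). NEK2 was number 12 of the 8476 genes by unadjusted edgeR p (0.0058), but the adjusted p was 0.977, and DESeq2 gave an adjusted p of 0.667. Leaving out DDB1_KD replicate 2 gave NEK2 a log2 fold change of 0.55, the lowest of the libraries left out in turn, and leaving out DDB1_KD replicate 4 gave the highest, 0.79.

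AURKA, the Aurora kinase of centrosomes and spindle poles, stood at 38.5, 58.0, 62.6, 39.0 and 73.0 FPKM in DDB1_KD and 33.1, 39.5, 60.2, 39.1 and 53.3 FPKM in NC. The groups overlapped over most of their ranges, and the log2 fold change was 0.30 (SE 0.24), or 0.15 without DDB1_KD replicate 5. AURKA overlaps the genes CSTF1 and FAM210B on the other strand, and its reads cannot be told from theirs if counting ignored strand. PLK1, the Polo-like kinase that promotes mitotic entry, had 11.1, 12.1, 6.05, 15.4 and 9.61 FPKM in DDB1_KD and 6.79, 5.86, 10.2, 9.80 and 18.5 FPKM in NC. Its highest library was NC replicate 5 and its log2 fold change 0.09 (SE 0.32) was well within its error. AURKB, the kinase of the chromosomal passenger complex, stood at 28.9 to 50.7 FPKM in DDB1_KD and 16.8 to 54.3 FPKM in NC (log2 fold change 0.15, SE 0.30).

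The other passenger genes lay close to 0 change. CDCA8, borealin, which brings the complex to centromeres, had 8.37, 13.3, 11.8, 8.29 and 10.9 FPKM in DDB1_KD and 10.4, 13.3, 11.3, 10.3 and 6.02 FPKM in NC. The libraries of the groups were interleaved (log2 fold change 0.04, SE 0.26). INCENP stood at 1.25 to 4.28 FPKM in DDB1_KD and 2.56 to 3.33 FPKM in NC (-0.03, SE 0.33). Of its libraries DDB1_KD replicate 3 was the lowest.

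**Figure D2:**
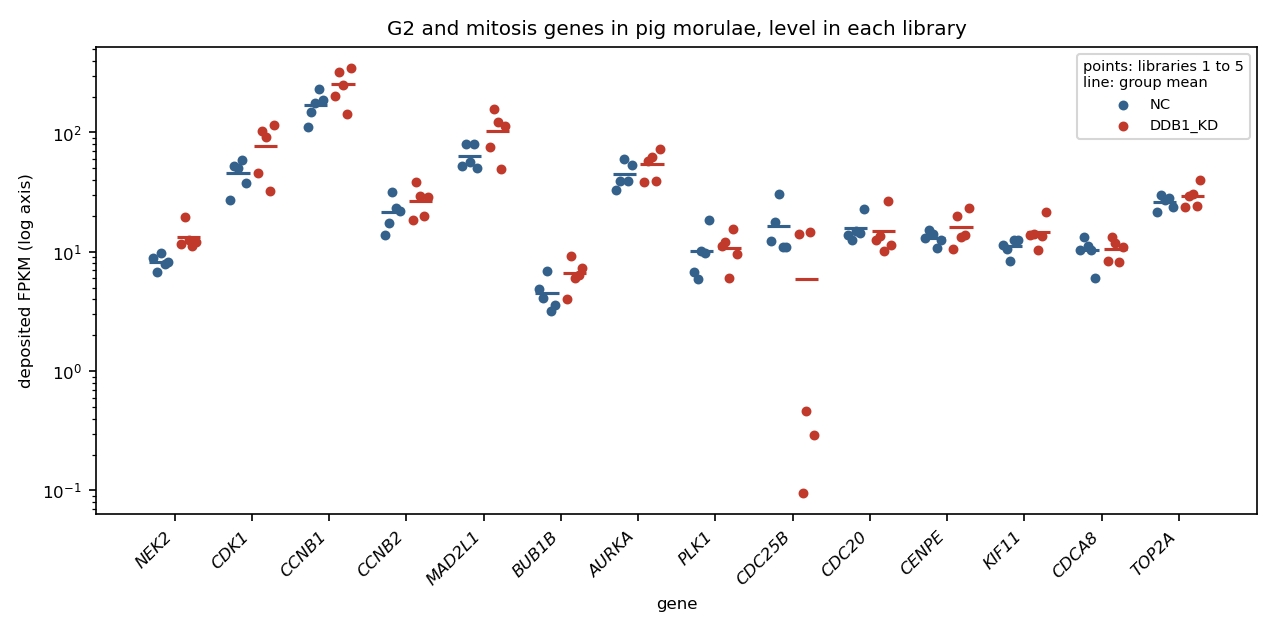
Deposited FPKM on a log axis for 14 of the genes, with 1 point for each library (blue NC, red DDB1_KD, replicates 1 to 5 from left to right) and a line at each group mean. NEK2 is the gene whose groups do not overlap, and 3 DDB1_KD points of CDC25B lie below 0.5 FPKM while its other points lie between 10.9 and 30.6 FPKM.

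Among checkpoint genes, MAD2L1 and BUB1B had higher fitted values in DDB1_KD while TTK and BUB1 differed little. MAD2L1, whose protein binds and holds CDC20, had 75.02, 158, 121, 49.0 and 113 FPKM in DDB1_KD replicates 1 to 5 and 52.1, 80.5, 56.4, 79.7 and 50.8 FPKM in NC replicates 1 to 5. DDB1_KD replicates 2, 3 and 5 lay above all NC libraries, and replicate 4 below them all. Its log2 fold change was 0.70 (SE 0.31), number 196 by p. BUB1B, the BubR1 component of the mitotic checkpoint complex, stood at 4.05, 9.21, 6.02, 6.35 and 7.35 FPKM in DDB1_KD and 4.89, 4.06, 6.88, 3.18 and 3.56 FPKM in NC. Replicates 2 and 5 of the knockdown lay above the NC range and replicates 1, 3 and 4 within it. The log2 fold change was 0.56 (SE 0.27), number 300 by p. BUB1B overlaps PAK6 on the same strand.

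TTK, the MPS1 kinase that starts checkpoint signalling, had 7.58 to 10.8 FPKM in DDB1_KD and 7.05 to 9.77 FPKM in NC (log2 fold change 0.18, SE 0.19, or 0.30 without NC replicate 2). BUB1, the kinetochore kinase, had the lower mean in DDB1_KD, at 7.84 ± 0.592 against 8.53 ± 1.32 FPKM (SD, n = 5 each), with a log2 fold change of -0.11 (SE 0.17).

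The partners of the anaphase-promoting complex had slightly lower fitted values in DDB1_KD. CDC20, its mitotic activator, stood at 12.6, 13.6, 10.2, 26.5 and 11.4 FPKM in DDB1_KD and 13.8, 12.6, 15.01, 14.5 and 22.9 FPKM in NC. In each group 1 library stood apart at the top, DDB1_KD replicate 4 and NC replicate 5, and the log2 fold change was -0.10 (SE 0.24). UBE2C stood at 374 to 753 FPKM in DDB1_KD and 469 to 729 FPKM in NC (-0.05, SE 0.23). CDC20 overlaps ELOVL1 on the other strand.

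At the centromere and kinetochore, CENPE, the kinesin that carries chromosomes to the spindle equator, had the smallest p. Its level was 10.5, 19.8, 13.2, 13.9 and 23.2 FPKM in DDB1_KD and 12.9, 15.2, 14.2, 10.7 and 12.6 FPKM in NC. DDB1_KD replicates 2 and 5 lay above the NC range and replicate 1 just below it. The log2 fold change was 0.31 (SE 0.23), or 0.11 without DDB1_KD replicate 5. NDC80, of the complex that grips microtubules, had 9.15 to 24.99 FPKM in DDB1_KD and 8.98 to 15.8 FPKM in NC. The fitted difference was 0.33 on the log2 scale (SE 0.28), or 0.15 without DDB1_KD replicate 2. NDC80 overlaps ENSSSCG00000020888 and RF00432 on the other strand and RF00026 on the same strand. CENPF, a large kinetochore and nuclear matrix protein gene, was at 15.7 ± 2.94 and 15.2 ± 2.85 FPKM, and CENPA, the centromeric histone H3 variant, at 5.54 ± 1.996 and 5.62 ± 2.67 FPKM (SD, n = 5 each, DDB1_KD before NC). CENPA had a log2 fold change of -0.01 (SE 0.35), whose sign changed with the tool used.

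The 8 genes of spindle and cytokinesis had 7 higher fitted values and 1 lower, with a median log2 fold change of 0.16. KIF11, the bipolar kinesin that pushes spindle poles apart, had the smallest p of them. It stood at 13.9, 14.01, 10.4, 13.6 and 21.4 FPKM in DDB1_KD and 11.3, 10.6, 8.29, 12.5 and 12.7 FPKM in NC. By FPKM 4 of 5 DDB1_KD libraries lay above the NC range. By log2 CPM DDB1_KD replicate 4 (5.95) lay below NC replicate 4 (6.05), and DDB1_KD replicate 2 (6.07) just above it. The log2 fold change was 0.42 (SE 0.23), and 0.21 without DDB1_KD replicate 5. ECT2, the exchange factor that activates RhoA at the division plane, had 11.1 to 31.7 FPKM in DDB1_KD and 10.1 to 20.4 FPKM in NC. The fitted difference was 0.51 on the log2 scale (SE 0.32), or 0.30 without DDB1_KD replicate 5.

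NUSAP1, a microtubule-bundling protein gene, stood at 52.0 ± 19.4 and 43.3 ± 6.72 FPKM and TPX2, an activator of Aurora A on the spindle, at 41.7 ± 17.2 and 37.8 ± 10.6 FPKM (SD, n = 5 each, DDB1_KD before NC). Their log2 fold changes were 0.28 (SE 0.25) and 0.16 (SE 0.31). Without DDB1_KD replicate 2 they were 0.11 and -0.011. NUSAP1 overlaps OIP5, and TPX2 overlaps BCL2L1, on the other strand. KIF23, the centralspindlin kinesin, had 15.4 to 25.2 FPKM in DDB1_KD and 12.4 to 23.7 FPKM in NC. KIF20A, a kinesin of the central spindle that overlaps BRD8 and CDC23 on the other strand, had 5.33 to 8.53 and 4.40 to 8.40 FPKM. PRC1, which bundles the midzone microtubules, had the smallest SE of the 30 genes at 33.1 ± 3.99 and 32.8 ± 4.27 FPKM (SD, n = 5 each, DDB1_KD before NC), a log2 fold change of 0.02 (SE 0.17). ANLN, the anillin scaffold of the contractile ring, was the lower one at 3.77 to 8.27 and 3.55 to 8.44 FPKM (-0.10, SE 0.30). TOP2A, the topoisomerase that untangles sister chromatids, had 23.8, 29.4, 30.3, 24.4 and 40.0 FPKM in DDB1_KD and 21.6, 29.9, 27.1, 28.0 and 23.9 FPKM in NC, with DDB1_KD replicates 3 and 5 above the NC range. Its log2 fold change was 0.20 (SE 0.21), or 0.039 without DDB1_KD replicate 5.

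The genes did not move as 1 block from library to library. Over the 10 libraries the highest log2 CPM (counts on a log scale relative to library depth) lay in DDB1_KD replicate 5 for 11 of the 30 genes and in DDB1_KD replicate 2 for 9. The lowest lay in NC replicate 1 for 9 genes and in NC replicate 5 for 6. Such counts were not made over all genes tested, so they are not shown to be particular to the 30. The SD of log2 CPM was larger in DDB1_KD for 69.2% of all genes tested. Across the 10 libraries, which share their scaling and their depth within each point, 14 genes had a Pearson r of at least 0.5 with the mean of the other 29 and 8 had an r below 0. ECT2 (0.85), CDK1 (0.83), TOP2A (0.79) and CCNB1 (0.79) were at the upper end, and CDC25B (-0.84), CENPA (-0.62) and CDC20 (-0.58) at the lower end. For every gene but itself, CDC25B is part of that mean, at -1.44, 0.81 and 0.20 log2 CPM in DDB1_KD replicates 2, 3 and 5. The mean of all 30 spanned only 6.14 to 6.59 log2 CPM, so these r values can carry the low values of CDC25B. They were not computed without it. The closest pairs were CCNB1 with ECT2 (r = 0.96) and NDC80 with NUSAP1 (r = 0.95). The median r over all pairs of the 30 was 0.20, against -0.00 over all pairs of the genes tested. These values describe the libraries and carry no test.

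**Figure D3:**
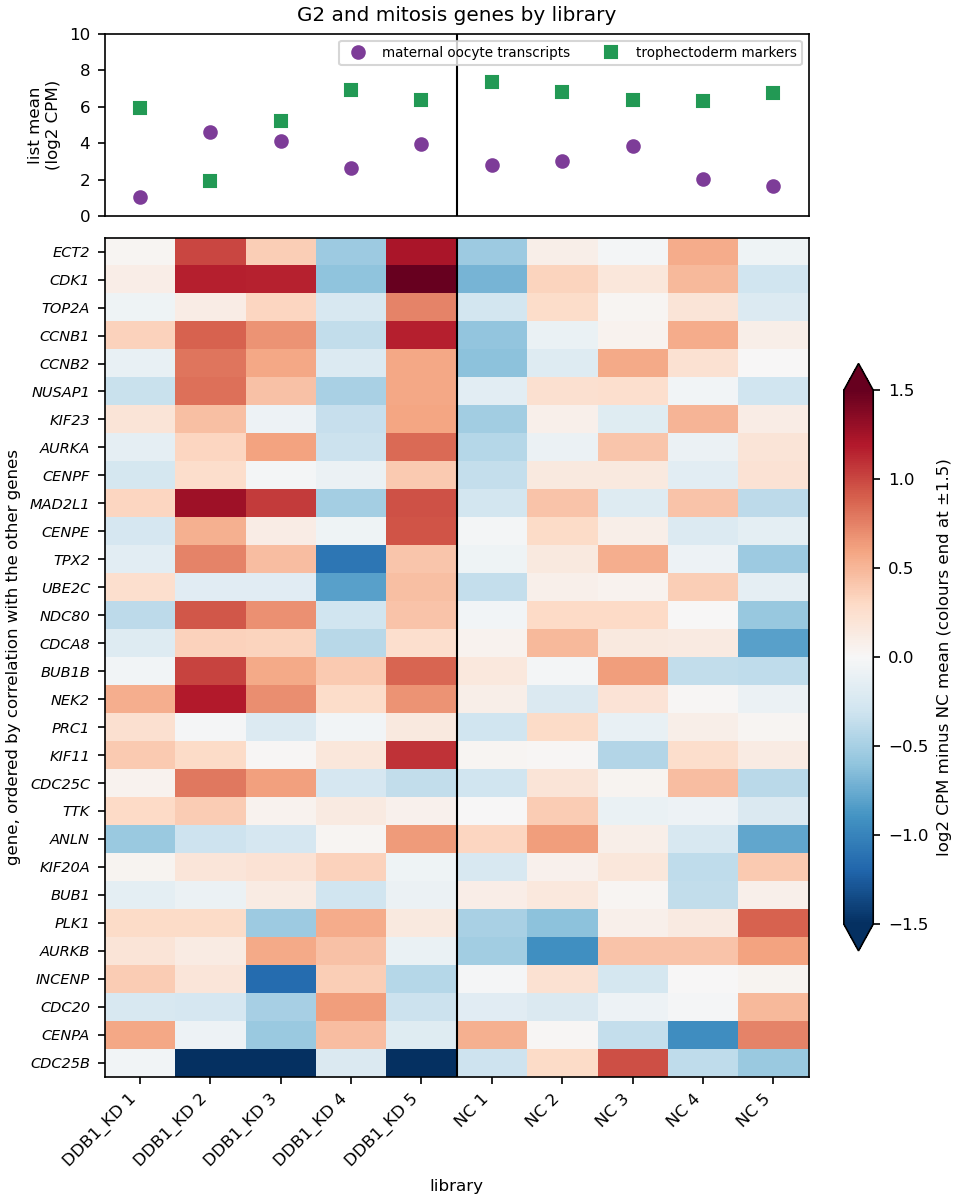
Lower panel, log2 CPM of each gene minus its NC mean (colour) in the 10 libraries, with genes ordered by their correlation with the other genes. Upper panel, mean log2 CPM of maternal oocyte transcripts and of trophectoderm markers in the same libraries, where DDB1_KD replicate 2 has the highest maternal value, 4.63, and the lowest trophectoderm value, 1.94.

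Transcripts known from other cell types and stages also differed between libraries. Over the 10 libraries 21 of the 30 genes had a Pearson r above 0 with the mean of maternal oocyte transcripts and 9 below 0, from 0.92 for NDC80 to -0.68 for CDC25B. With the mean of trophectoderm markers 23 had an r below 0 and 7 above 0. The shares over all genes tested were not computed, so neither count is shown to be particular to the 30. Of 28 maternal oocyte transcripts 23 were listed, with a summed level of 44.9 to 891 FPKM in DDB1_KD and 69.1 to 264 FPKM in NC. TLE6 was at 0 in every library. In the 18 tested, the list mean was 1.07, 4.63, 4.14, 2.61 and 3.98 log2 CPM in DDB1_KD replicates 1 to 5 and 2.81, 3.03, 3.85, 2.04 and 1.65 log2 CPM in NC replicates 1 to 5. The DDB1_KD libraries with the most CDK1, CCNB1 and MAD2L1 RNA and the least CDC25B RNA, replicates 2, 3 and 5, were thus the ones with most maternal RNA. NC replicate 3 came near them in maternal RNA, with a CDC25B level of 30.6 FPKM, the highest of all, and 50.8 FPKM of CDK1. All 15 trophectoderm markers were listed, with a summed level of 91.1 to 883 FPKM in DDB1_KD and 577 to 1172 FPKM in NC. The mean of the 10 that were tested was lowest in DDB1_KD replicate 2, at 1.94 against 5.24 to 7.35 log2 CPM elsewhere. CDX2 did not exceed 0.228 FPKM in any library. Mitochondrial genes took 12.2% to 24.4% of counts in the knockdown libraries and 8.58% to 18.4% in the controls. The part of these differences in the values of the G2 and mitosis genes was not tested, and in such bulk samples fewer cells of a type and less RNA per cell cannot be told apart. Without DDB1_KD replicate 2, 22 of the 30 genes had a higher fitted value and the median log2 fold change was 0.11, and without DDB1_KD replicate 4 the median was 0.28.

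Spread was wider in DDB1_KD than in NC for 20 of the 30 genes, by the SD of log2 CPM, but this held for 69.2% of all genes tested as well. The median SD of the 30 genes was 0.46 in DDB1_KD and 0.35 in NC, against 0.55 and 0.41 over all genes tested.

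Listed isoforms gave no further call. The 30 genes had 67 listed isoforms, of which 47 had a mean of at least 1 FPKM and were tested among 11250. None of the 47 passed edgeR (0.00889% of all isoforms did, 1 in number), and 1 had an unadjusted p under 0.05, the single listed isoform of NEK2, where 3.36% of all isoforms reached that level. Of the 30 genes, 15 had 1 listed isoform. In 7 of the other 15 the same isoform had the largest share in every library. CDK1 was one of them, with 98.03% to 100% of its counts in the isoform of 8 exons and 5250 bases (ENSSSCT00000050632). All counts of CDC25B, in high and low libraries alike, lay in 1 of its 5 listed isoforms (ENSSSCT00000007824, 16 exons).

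In 8 genes the leading isoform differed between libraries, and shares were not tested between the groups. Some isoforms led in 1 group only. ANLN's ENSSSCT00000057595 led in DDB1_KD replicates 2, 3 and 4 (50.4%, 79.6% and 86.6%). It held 0% and 5.99% in DDB1_KD replicates 1 and 5, and 0% to 14.6% in NC. CENPE's ENSSSCT00000051415 led in NC replicates 3 and 5 (66.5% and 83.8%). It held 24.7%, 0% and 0% in NC replicates 1, 2 and 4, and 0% to 16.2% in DDB1_KD. For their levels edgeR gave an unadjusted p of 0.22 (ANLN's) and 0.24 (CENPE's). Such isoforms were not counted over all genes tested. Others led in libraries of both groups. KIF23 had most of its counts in the isoform of 24 exons (ENSSSCT00000005481) in DDB1_KD replicate 5 (63.1%) and NC replicates 1 (73.4%) and 3 (83.2%). In the other 7 libraries the isoform of 22 exons (ENSSSCT00000051652) held 88.3% to 96.6%. PRC1 had 99.0% to 100% of its counts in the isoform of 14 exons (ENSSSCT00000057397) in 7 libraries, but 13.1% in NC replicate 2, 36.9% in NC replicate 5 and 55.1% in DDB1_KD replicate 1. BUB1B had 97.2% of its counts in the isoform of 21 exons (ENSSSCT00000063679) in DDB1_KD replicate 1 and none there in the other 9 libraries. The total of PRC1 differed little between libraries while its isoforms did. How the authors' estimates divide reads between overlapping isoforms is not stated in the sources used here, and the error of these shares is unknown.

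**Figure D4:**
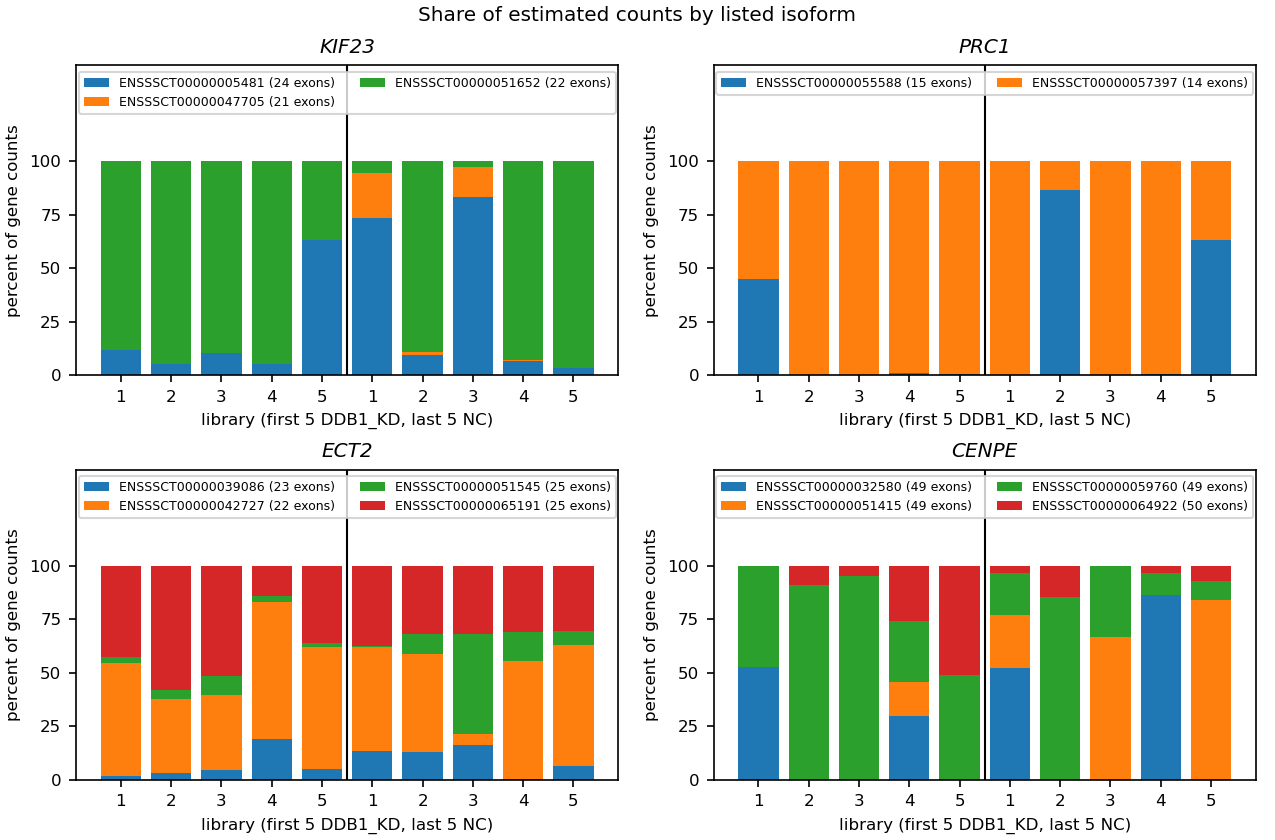
Percent of each gene's estimated counts given to each listed isoform (stacked bars) in DDB1_KD replicates 1 to 5 and NC replicates 1 to 5, for KIF23, PRC1, ECT2 and CENPE. Libraries of both groups are dominated by different isoforms, such as the isoform of 24 exons of KIF23 in DDB1_KD replicate 5 and NC replicates 1 and 3.

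Other cell division genes were described by 6 further lists, and no gene of them passed. Kinetochore, centromere and checkpoint genes outside the 30 had 25 higher and 7 lower fitted values among 32 tested (median log2 fold change 0.16), where 50% of all genes tested were higher. CENPO, a subunit of the constitutive centromere network, had the smallest p of them, with means of 6.61 ± 2.34 and 3.51 ± 0.888 FPKM (SD, n = 5 each, DDB1_KD before NC). Its log2 fold change was 0.92 (SE 0.30), with an edgeR adjusted p of 0.977. SKA1, which couples kinetochores to microtubules, stood at 0.64 (SE 0.28) in log2 fold change and SPC24, a subunit of the NDC80 complex, at -0.38 (SE 0.21). Other spindle and cytokinesis genes had 23 higher and 8 lower values among 31 (median 0.13), with the kinesin KIF20B at 0.46 (SE 0.23), the spindle protein gene CKAP2L at 0.61 (SE 0.33) and survivin, BIRC5, at -0.35 (SE 0.17). Condensin, cohesin and chromosome structure genes had 13 higher and 6 lower values (median 0.14). Among them were SGO2, the shugoshin that protects centromeric cohesion, at 0.49 (SE 0.25), and the condensin genes NCAPG at 0.25 (SE 0.18) and SMC4 at 0.16 (SE 0.14).

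Genes that control CDK1 had 11 higher and 8 lower values among 19 tested (median 0.10). MASTL, the Greatwall kinase that restrains the phosphatase opposing CDK1, had means of 4.70 ± 1.61 and 3.03 ± 0.777 FPKM (SD, n = 5 each, DDB1_KD before NC), and its log2 fold change was 0.65 (SE 0.29). CCNB3 stood at 0.48 (SE 0.33) and LIN9, of the complex that activates mitotic genes, at 0.42 (SE 0.31). The anaphase-promoting complex and its regulators had 11 higher and 8 lower values among 19 (median 0.11), with its subunits CDC27 at 0.38 (SE 0.23), ANAPC10 at 0.39 (SE 0.33) and CDC23, which overlaps KIF20A, at -0.56 (SE 0.38). Genes of replication licensing and S phase, the neighbouring part of the cell cycle, had 12 higher and 14 lower values among 26 (median -0.041). The origin recognition genes ORC6 and ORC1 stood at 0.40 (SE 0.20) and -0.37 (SE 0.22), and FEN1, which trims Okazaki fragments, at -0.55 (SE 0.42). No test of the difference between these lists and the 30 genes was made. Over the alternatives run, the median was 0.090 to 0.27 for other kinetochore genes, 0.086 to 0.23 for other spindle genes and 0.018 to 0.18 for the anaphase-promoting complex. Those for chromosome structure (-0.040 to 0.19), CDK1 control (-0.0093 to 0.17) and S phase (-0.12 to 0.076) changed sign. The low end for other kinetochore genes and the anaphase-promoting complex came without DDB1_KD replicate 2, and that for chromosome structure without DDB1_KD replicate 5.

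**Figure D5:**
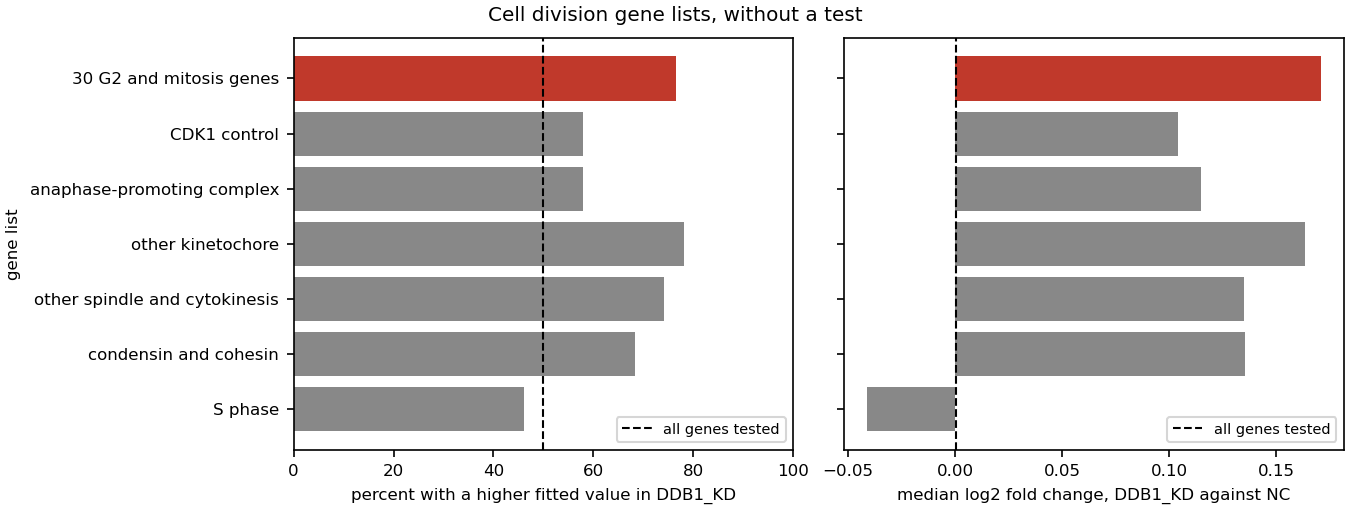
Percent of tested genes with a higher fitted value in DDB1_KD (left) and median log2 fold change (right) for the 30 G2 and mitosis genes (red) and 6 related lists (grey), with a dashed line for all 8476 genes tested. The share was 76.7% for the 30 genes, 78.1% for other kinetochore genes and 46.2% for S phase genes, against 50% of all genes.

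All 18 maternal transcripts tested had a higher fitted value in DDB1_KD (median 0.87) and 9 of 10 trophectoderm markers a lower one (median -0.92), and none passed. The maternal median was 0.51 with limma, 0.54 without DDB1_KD replicate 2 and 1.34 without NC replicate 3. The trophectoderm median was -0.60 without DDB1_KD replicate 2, -1.40 without DDB1_KD replicate 4 and -1.41 with limma at a pseudocount of 0.1. The egg coat genes ZP4 and ZP2 stood at 2.02 (SE 0.66) and 1.06 (SE 0.54). The deadenylase gene CNOT7, counted among the 18, stood at 0.60 (SE 0.29). Its level was 15.1 FPKM or more in every library, up to 45.9 FPKM, so it is a weak marker of stored oocyte RNA. The sodium pump gene ATP1B1 stood at -1.20 (SE 0.68), the endocytic adaptor DAB2 at -1.37 (SE 0.81) and the tight junction gene CLDN4 at -0.66 (SE 0.44), and FST of the cumulus list at -1.73 (SE 0.77). WEE2, an oocyte inhibitor of CDK1, is in both the maternal list and the CDK1 control list.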

How the data were processed

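The submitters' processing notes list, without version, order or role, the tools edgeR, StringTie, ChIPseeker, HOMER, HISAT2 and fastp, and susScr11 as build. Per the file headers, the deposited tables give FPKM and counts for 24358 genes and 47421 isoforms. The deposited estimated counts are whole numbers that equal isoform FPKM times length times 1 constant per library (100% of counts above 0, within 1.5 counts plus 0.5%). Their sampling error may thus not be that of reads. Where the count is 0 the authors' FPKM is 0.0001. Gene FPKM is not always the sum of isoform FPKM. The strand setting of the counting is not stated, and 6 of the 30 genes overlap a gene on the other strand. DBB1 in the column names was read as DDB1.

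Genes with a mean FPKM of at least 1 were tested with edgeR 4.0.16 (glmQLFit, glmQLFTest, TMM scaling, group alone) in R 4.3.3, with Benjamini-Hochberg adjustment over all of them. The SE is the unshrunken coefficient over the root of F. DESeq2 1.42.0 and limma 3.58.1 on log2(FPKM + 1) were run beside it, and the fits were tested on simulated data. Log2 CPM uses a prior count of 2. Alternatives covered the tool, pseudocount, filter, scaling, mitochondrial genes, replicate block and each library left out. Python 3.11.15 and matplotlib 3.10.9 made summaries and figures. The members and lists were chosen with earlier results of these data known. Values in every library are given for a set of central genes, for the gene with the smallest p of each role and for the 5 with the smallest p of the 30, and up to 3 genes with the smallest p are named from each further list.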

Additional observations from a re-analysis of the deposited data

Results flagged for a closer look

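In 3 of the 62 sets of 5 values examined (30 genes and DDB1 in each group, on log2 CPM) 1 library stood apart from the other 4, and chance gives about 1 in 20. CDC20 did so in both groups, with DDB1_KD replicate 4 at 26.5 FPKM against 10.2 to 13.6 FPKM in the other DDB1_KD libraries, and NC replicate 5 at 22.9 FPKM against 12.6 to 15.01 FPKM. BUB1 stood apart in NC replicate 4, at 6.21 FPKM against 8.86 to 9.48 FPKM in the other NC libraries.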

How the results depend on the processing

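Over 19 alternatives to the fit, 10 of which left out 1 library, none of the 30 genes passed. INCENP was fitted in 18 of them, as it lay under the mean of 5 FPKM that 1 alternative required. The number with a higher fitted value was 21 to 26 and their median log2 fold change 0.11 to 0.28. The direction held in every alternative for 19 of the 30 genes, 17 higher and 2 lower (BUB1 and CDC25B). It turned in at least 1 for the other 11. Leaving out 1 library gave log2 fold changes of -0.33 to 0.090 for ANLN, -0.011 to 0.30 for AURKB, -0.35 to 0.043 for CDC20, -0.12 to 0.19 for CDCA8, -0.18 to 0.20 for CENPA, -0.024 to 0.15 for CENPF, -0.15 to 0.16 for INCENP, -0.027 to 0.38 for PLK1, -0.038 to 0.12 for PRC1, -0.011 to 0.36 for TPX2 and -0.19 to 0.098 for UBE2C. CENPA also turned with DESeq2 (0.0030), limma (0.025, and 0.040 with a pseudocount of 0.1), RLE scaling (0.0030) and the replicate block (0.036), and the cause was not tested. In log2 fold change, CDC25B gave -2.23 to -1.20 when 1 library was left out, -3.84 with the replicate block and -3.30 with limma at a pseudocount of 0.1. Of all genes 2 passed DESeq2, and 0 passed in the other alternatives. Of all isoforms 68 passed DESeq2, 2 limma with a pseudocount of 0.1, and 0 passed without a filter, at a mean FPKM of at least 5 or with the replicate block, with 0 to 2 when 1 library was left out. Whether the replicate numbers pair the libraries is not stated in the sources used here. Deviations of same-numbered libraries correlated at -0.14 to 0.35, 1 of 5 best with its own number, which is too few to settle it. The replicate block left 0 genes passing. The difference in DDB1 level as mean log2(FPKM + 1), -0.93, was -1.01 to -0.85 when 1 library was left out. The median pairwise r of the 30 genes was 0.17 to 0.22 then.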

Other observations

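CDC25B had a range of 8.13 log2 CPM over the 10 libraries, number 72 of the 8476 genes tested, and its SD in DDB1_KD was number 53, while its SD in NC was number 2075. It was singled out after its values were seen. The nearest tested gene, C20orf27, lies 21435 bases away on the other strand (chromosome 17, 31943023 to 31956751, susScr11 build). C20orf27 stood at 18.1 to 25.4 FPKM in DDB1_KD and 13.5 to 31.9 FPKM in NC, so the very low values of CDC25B in DDB1_KD replicates 2, 3 and 5 were not shared by it.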
